A study of Rattus norvegicus with 4 samples.

Results

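The genes that copy, set and read DNA methylation were followed in the ventral prostate of rats given PhIP, a carcinogenic heterocyclic amine that forms when meat is cooked at high heat. They were Uhrf1, Dnmt1, Hells, Dnmt3a, Dnmt3b, Mbd1 and Mbd2, and every probe set that the platform annotation assigns to exactly 1 of these 7 symbols was taken. That gave 8 of the 31099 probe sets on the array, 2 for Dnmt3a and 1 for each other gene. Both groups consisted of male F344 rats, an inbred laboratory strain, aged 6 weeks, with 4 animals each. The PhIP rats had received 300 mg/kg and the control rats none, and all were killed 2 days later. Each array carried RNA from 2 rats, and the data are 4 arrays, control 1, control 2, PhIP 1 and PhIP 2, and a replicate is a pool (n = 2 per group). The genes were selected with results of this same contrast in view, Uhrf1 for its difference between the groups. Their differences between PhIP and control are therefore given as descriptions, and the calls that the fit over all probe sets makes on them are no independent test.

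A methyl group on the cytosine of a CpG dinucleotide is copied to the new strand after each round of DNA replication. Uhrf1 encodes the protein that recognises CpG sites methylated on the old strand only and brings in Dnmt1, the maintenance methyltransferase. Hells encodes a chromatin remodelling helicase needed for methylation of repeats. Dnmt3a and Dnmt3b encode the methyltransferases that set new marks, and Mbd1 and Mbd2 encode proteins that bind methylated CpG sites and recruit repressors. Uhrf1 and Dnmt1 are abundant in dividing cells, and their substrate arises at the replication fork.

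The promoters of the 3 maintenance genes are shown because Uhrf1 and Dnmt1 were the members that differed most between the groups and Hells acts with them. The sequences are from RefSeq, build GRCr8, and each covers the 250 bases before an annotated start, 5′ to 3′ on the gene's strand. Promoter entries were found for all members except Dnmt3b. Uhrf1 has 3 annotated starts, of which the third is shown, chr9:1222936-1223185 on the + strand. It has the most CpG of the 3 and is the only one with a match to the E2F motifs given below. The window of Hells is chr1:246113879-246114128 on the + strand, and that of Dnmt1 is chr8:27762842-27763091 on the - strand. Capitals mark matches, on either strand, to the E2F motifs TTTCCCGC and TTTGGCGC, the CCAAT box CCAAT and the GC box GGGCGG.
Uhrf1: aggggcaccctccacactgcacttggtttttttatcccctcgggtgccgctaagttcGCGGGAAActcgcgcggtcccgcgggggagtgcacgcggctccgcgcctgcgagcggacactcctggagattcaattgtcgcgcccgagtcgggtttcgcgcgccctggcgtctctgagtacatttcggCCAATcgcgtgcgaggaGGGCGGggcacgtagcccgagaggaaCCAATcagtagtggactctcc
Hells: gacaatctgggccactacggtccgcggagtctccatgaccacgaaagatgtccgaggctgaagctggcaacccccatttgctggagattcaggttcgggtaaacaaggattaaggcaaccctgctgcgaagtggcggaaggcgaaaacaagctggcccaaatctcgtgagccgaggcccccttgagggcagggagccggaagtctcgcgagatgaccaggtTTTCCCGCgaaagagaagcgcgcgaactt
Dnmt1: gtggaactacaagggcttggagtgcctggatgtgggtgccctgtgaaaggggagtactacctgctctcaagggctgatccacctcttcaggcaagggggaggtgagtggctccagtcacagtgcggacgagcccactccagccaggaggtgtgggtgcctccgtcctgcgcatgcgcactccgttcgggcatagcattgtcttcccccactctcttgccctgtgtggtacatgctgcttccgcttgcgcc
E2F factors are the transcription factors that drive genes of DNA replication. An E2F motif was present in 1.21% of the 33469 windows of this length in the table. Both E2F motifs contain a CpG, and this share is over windows of every CpG content. Uhrf1 held 1 match to TTTCCCGC, beginning 193 bases before the third start, and Hells held 1, beginning 29 bases before its start. The windows of Dnmt1, Dnmt3a, Mbd1 and Mbd2, and those at the other Uhrf1 starts, held neither E2F motif. CCAAT boxes, which occurred in 34% of all windows, were found at each Uhrf1 start (2 at the third) and at Mbd1 (1). GC boxes, in 30.5% of all windows, were found once at each Uhrf1 start, once at Dnmt3a and 4 times at Mbd2, where the last pair overlap. These matches describe letters and do not show binding.

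**Figure D1:**
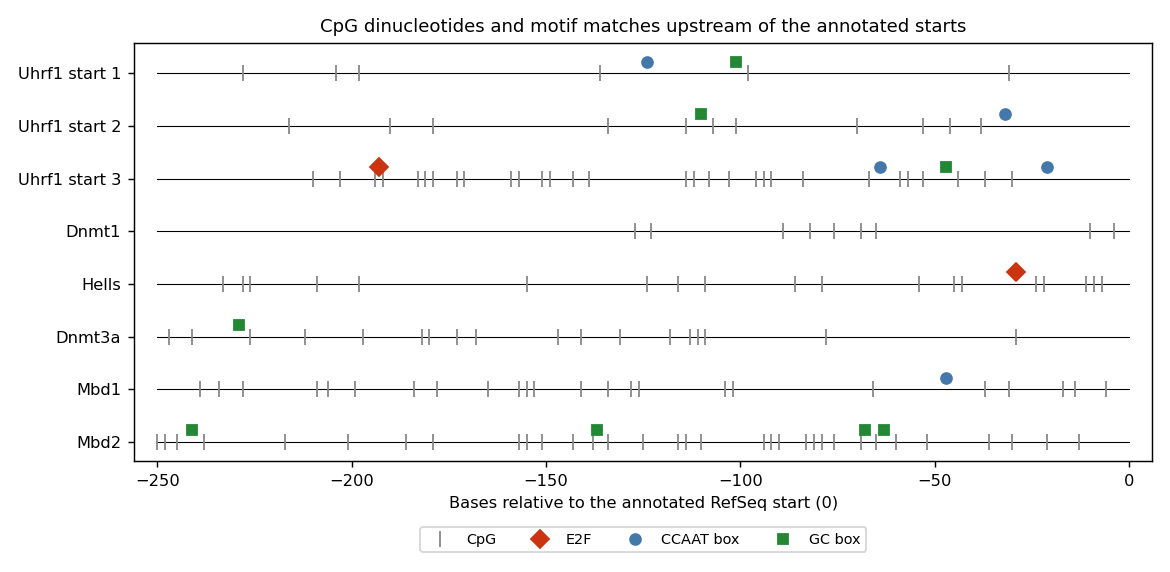
Positions of CpG dinucleotides (grey ticks) and motif matches (symbols above the lines) in the 250 bases before each annotated start, with distance to the start on the x axis and 1 line per start. The third Uhrf1 start carries 30 CpG and an E2F match 193 bases upstream, whereas Dnmt1 carries 9 CpG and no match.

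The same windows differed widely in CpG content, the substrate of these enzymes. Over all windows the median was 5 CpG, with quartiles of 2 and 15. Mbd2 held 33 CpG and the third Uhrf1 start 30, more than 96.4% and 94.7% of all windows. Mbd1 held 24, Hells 19 and Dnmt3a 18. Dnmt1 held 9, and the first and second Uhrf1 starts 6 and 11. Corrected for base composition, the observed over expected CpG ratio was 1.14 at the third Uhrf1 start, above 98.7% of windows, and 0.38 at Dnmt1, close to the median of 0.38.

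The median signals of the arrays were 25.5 and 27.4 in control versus 23.2 and 23.1 in PhIP, so they were slightly lower in PhIP. Pbsn, which encodes the prostate secretory protein probasin, had signals of 4273 to 4898. That goes with prostate tissue, and whether the lobe was the ventral one was not tested. Control 2 stood apart in RNA integrity, with a ratio of 3′ to 5′ signal of 5.71 for actin and 2.06 for Gapdh, against 3.49 to 4.18 and 1.34 to 1.45 on the other 3 arrays. It also stood apart in skeletal muscle markers. Their median log2 difference was 1.43 for control 2 minus control 1, against 0.18 for PhIP 2 minus PhIP 1. Over the 18625 probe sets bright enough to be tested, control 1 correlated with control 2 at r = 0.972 and with the PhIP arrays at 0.980 and 0.979. The contrast called 5 of the 18625 at an adjusted p of 0.05 (limma, Benjamini-Hochberg). Calls without 1 array are not given, only effect sizes. Such a fit leaves 1 array in a group, and its residual spread comes from the other group's pair alone. The median log2 fold change of all tested probe sets was −0.03, which median centring moved to 0.11, and scaling to the spiked hybridization controls to 0.18. All 18 probe sets of these controls were lower in PhIP, with a mean log2 difference of −0.23.

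Uhrf1, the reader of half-methylated CpG, was the member that differed most. Its MAS5 signal (the deposited intensity, on a linear scale) was 63.2 and 67.3 in control versus 148.3 and 153.8 in PhIP. Both PhIP pools were thus far above both control pools, and each PhIP array exceeded each control array by 2.20 to 2.43 times. The group means were 65.2 ± 2.90 (SD, n = 2) and 151.1 ± 3.89 (n = 2). On log2(signal + 10), the scale of all fold changes here, which understates those of dim probe sets, the difference was 1.10 ± 0.15 (SE), a fold of 2.14. It ranked 47th from the top among the tested probe sets, of which 77 had a log2 fold change of at least 1. The pools of a group lay close together, 0.08 apart in control versus 0.05 in PhIP on the log2 scale. The gap was narrower in 20.5% of tested probe sets in control and in 20.6% in PhIP.

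Dnmt1, which copies the methylation pattern, stood second. Its signal was 62.9 and 69.3 in control versus 103.2 and 84.8 in PhIP. The groups did not overlap, but PhIP 1 and PhIP 2 differed more than the control pools did. The log2 fold change was 0.45 ± 0.17, a fold of 1.36, higher than that of 95.2% of tested probe sets. It was 0.57 without PhIP 2 and 0.32 without PhIP 1. The ratio of a PhIP array to a control array ran from 1.22 to 1.64, below every ratio of Uhrf1.

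Hells, the third maintenance gene, had signals of 176.5 and 134.6 in control versus 186.9 and 173.2 in PhIP. The groups overlapped, since control 1 lay above PhIP 2. Its log2 fold change was 0.21 ± 0.16, and it rested on control 2: without that array it was 0.03, and without control 1 it was 0.39. Control 2 was also the array with the highest 3′ to 5′ ratios and the highest signals of skeletal muscle markers. The part of either in this value was not tested.

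**Figure D2:**
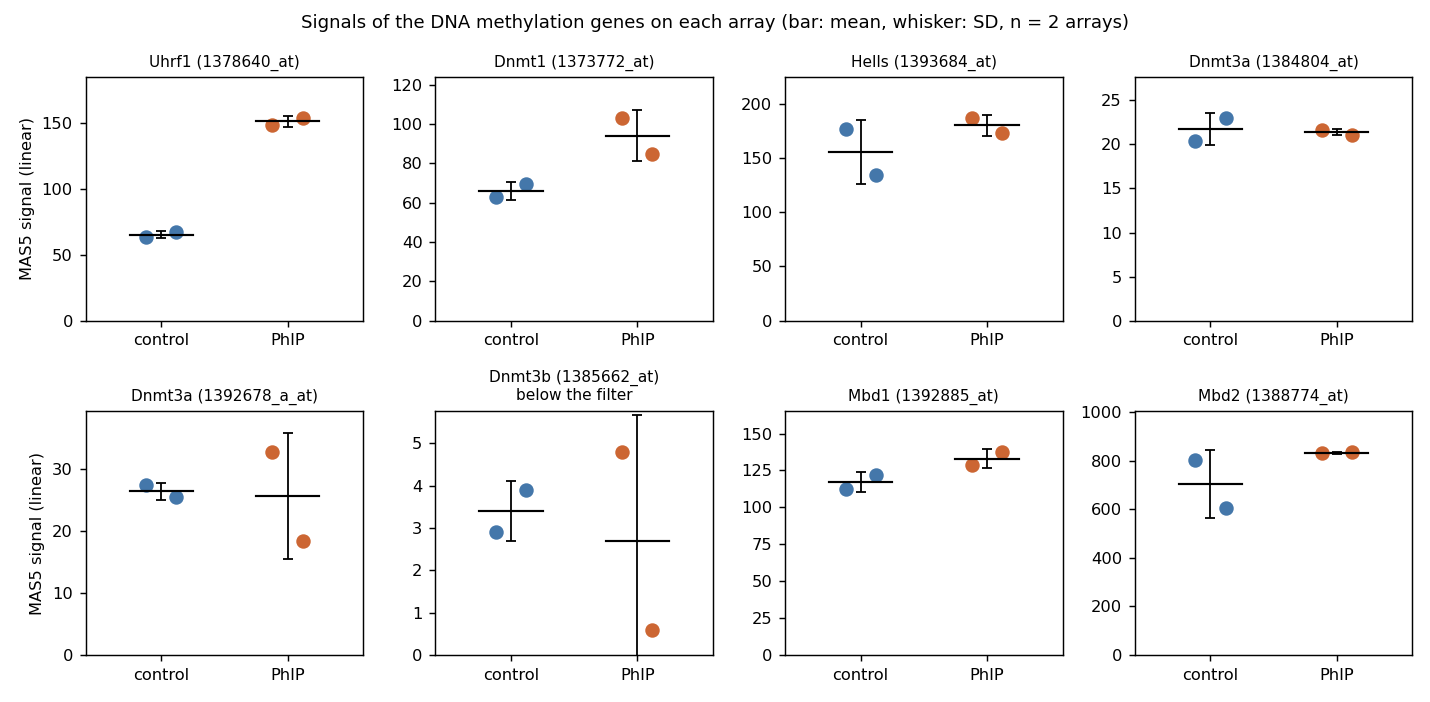
MAS5 signals (y axis, linear, from 0) of the 8 probe sets on the 2 control arrays (blue) and the 2 PhIP arrays (orange), with the mean as a bar and the SD as a whisker, which is cut at 0 for Dnmt3b. Relative to its level Uhrf1 shows the widest gap between groups, 63.2 and 67.3 against 148.3 and 153.8, and the Dnmt3a and Dnmt3b groups overlap.

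The methyltransferases that set new marks were dim and showed no separation of the groups. One Dnmt3a probe set, 1384804_at, had signals of 20.4 and 23.0 in control versus 21.6 and 21.1 in PhIP, a log2 fold change of −0.01 ± 0.23. The other, 1392678_a_at, had 27.3 and 25.4 in control versus 32.7 and 18.4 in PhIP, a log2 fold change of −0.06 ± 0.26. In that probe set the PhIP pools lay 0.59 apart, a wider gap than in 95.7% of tested probe sets, and the log2 fold change was −0.36 without PhIP 1 and 0.23 without PhIP 2. Neither direction of Dnmt3a was stable, since the sign turned after median centring in both (0.12 and 0.08). Dnmt3b, at 2.9 and 3.9 in control versus 4.8 and 0.6 in PhIP, lay below the minimum for testing, a mean signal plus constant of 24.3. Its mean was above that of 10.5% of all probe sets on the array, and no difference was detectable at such signals.

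The methyl-CpG-binding genes were both slightly higher in PhIP. Mbd1 had signals of 112.1 and 121.9 in control versus 128.4 and 137.6 in PhIP, and the groups did not overlap. Its log2 fold change was 0.17 ± 0.14, and it ranged from 0.12 to 0.23 when 1 array was left out. Mbd2, whose product joins the NuRD repressor complex, had 801.3 and 605.5 in control versus 830.0 and 836.0 in PhIP. The PhIP pools were nearly equal and both lay just above control 1, while control 2 was well below the other 3 arrays. The log2 fold change of 0.25 ± 0.13 was 0.06 without control 2 and 0.45 without control 1. As for Hells, the low array was the one with the highest 3′ to 5′ ratios and skeletal muscle signals. The part of either in the value was not tested.

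**Figure D3:**
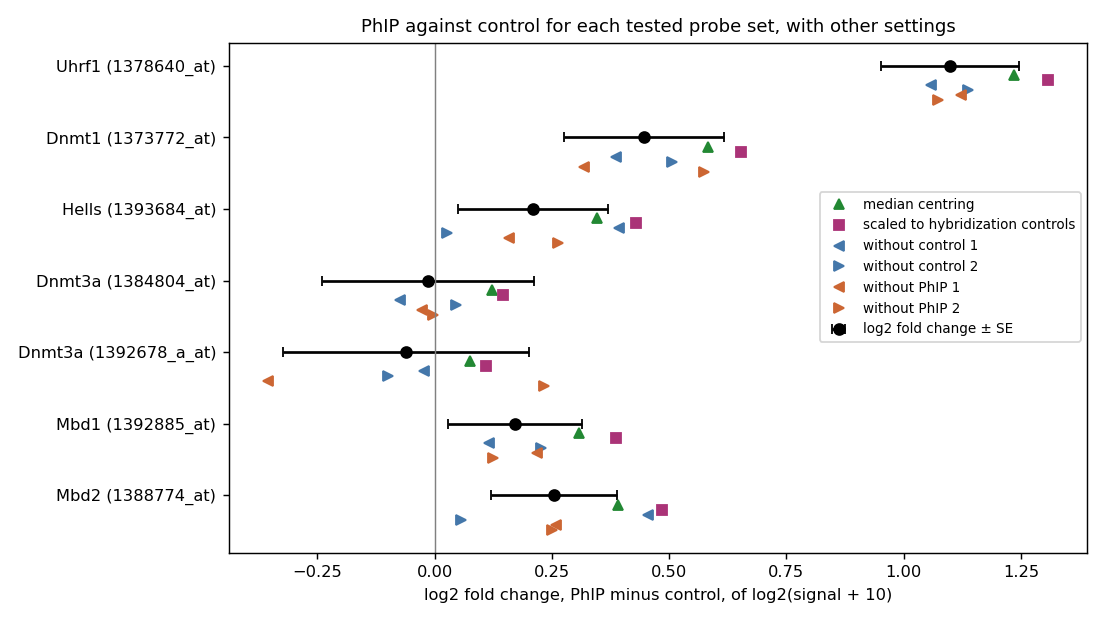
Log2 fold change of PhIP minus control (x axis) for the 7 tested probe sets, with the SE (black), and the same value under 2 other scalings or without 1 array (coloured symbols). Uhrf1 stays between 1.06 and 1.31 in all of these, Hells and Mbd2 come close to 0 without control 2, and both Dnmt3a probe sets lie on either side of 0.

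Of the 8 probe sets, 7 were bright enough to be tested. In limma 0 of the 7 passed an adjusted p of 0.05, where 0.0268% of all tested probe sets did, and 2 of the 7 were under an unadjusted p of 0.05, where 13% were in either direction and 5.36% in the higher one. In 4 of the 7 both PhIP arrays lay above both control arrays, against 19.8% of all tested probe sets, and in 0 of the 7 both lay below (the groups were apart in either direction in 45.8%). The groups overlapped in the other 3. The 0 was not the same under every setting. It was 1 (Uhrf1) with the minimum at the 60th percentile (0.354% of all), after scaling to the hybridization controls (0.881%) and with robust eBayes (0.279%). The median log2 fold change of the 7 was 0.21. Because the members were chosen on this contrast, these counts test nothing and nothing is read from them.

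Genes whose pattern over the 4 arrays was most like that of Uhrf1 were found by the root mean square distance between mean-centred log2 values, over 14195 tested probe sets with 1 symbol. The closest were Spag5, which encodes a spindle protein (distance 0.06), Mgmt, the repair methyltransferase of alkylated guanine (0.07), and Knstrn, a kinetochore partner of Spag5 (0.08). They were followed by Atad5, which unloads the clamp Pcna from DNA, Ska1 of the kinetochore, the mitotic kinase gene Melk, the protease gene Mep1b, the nuclease gene Aen, Cdca5l1 and the long noncoding RNA Pvt1 (0.08 to 0.10). Spag5 had signals of 32.3 and 31.0 in control versus 72.1 and 75.9 in PhIP, a log2 fold change of 1.01 ± 0.18. Among the other members Dnmt1 was nearest to Uhrf1, at a distance of 0.34 and rank 404. Mbd2 was at rank 1907, Mbd1 at 2197, Hells at 2532 and the Dnmt3a probe sets at 6242 and 9149. The likeness is over 4 arrays only and describes them. The values were not scaled, so the distance largely repeats the difference between PhIP and control for which Uhrf1 was selected. It is no independent support.

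Around the members, 10 lists of related genes held 138 genes, of which 102 were measured above the minimum, each by its brightest probe set. At an adjusted p of 0.05 (limma, over all tested probe sets) 0 of the 102 rose and 0 fell, while 1 of the 10507 genes tested passed (0.00952%). After scaling to the hybridization controls the number passing was 17, where 1.13% of all genes passed. In the analysis reported, 29 were higher and 4 lower at an unadjusted p under 0.05. Over all genes these shares were 6.12% and 8.45%, and the median log2 fold change was −0.03.

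Genes of the S phase, when Uhrf1 and Dnmt1 act, were higher throughout: all 18 tested had a positive log2 fold change, 15 with no overlap of the groups (21.6% of all genes), and the median was 0.56. Of the 18, 11 were under an unadjusted p of 0.05. The cyclin gene Ccne2, which acts at the entry into S phase, had signals of 117.3 and 87.0 in control versus 225.0 and 196.3 in PhIP (0.99 ± 0.17, limma adjusted p = 0.0929). Rrm1, a subunit of ribonucleotide reductase, stood at 0.86 ± 0.16 (adjusted p = 0.0977), Gins1 of the replicative helicase at 0.93 ± 0.18 (adjusted p = 0.110) and Mcm7 of the same helicase at 0.60 ± 0.12 (adjusted p = 0.114). Genes of G2 and mitosis had a median of 0.80, with all 12 tested apart in the higher direction and 11 under the unadjusted p. Mki67, the proliferation marker, had signals of 156.6 and 163.6 in control versus 252.6 and 286.4 in PhIP (0.71 ± 0.13, adjusted p = 0.0977). Ccna2 (1.26 ± 0.23), Ccnb2 (1.03 ± 0.19) and Cdk1 (0.97 ± 0.17), cyclins and kinase of the late cell cycle, had the same adjusted p. These lists were known to be higher from earlier results of these data and lend the members no independent support. The Uhrf1 value of 1.10 ± 0.15 lay above every S phase gene tested, while that of Hells lay near the lowest, 0.19. The highest S phase gene stood at 1.01 ± 0.20, within the SE of the Uhrf1 value. Uhrf1 was selected for its difference, so nothing is read from its place above the list.

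Among partners of maintenance methylation, Pcna, the replication clamp to which Dnmt1 binds, stood at 1.00 ± 0.13 (adjusted p = 0.0534), with signals of 705.2 and 547.4 in control versus 1172 and 1347 in PhIP. The other 9 were much less displaced and the median of the 10 was 0.06. That median was 0.03 without control 2, 0.10 without PhIP 1 and 0.16 when probe sets of a gene were averaged. Scaling to the hybridization controls gave 0.28 and median centring 0.20. Cdca7l, related to the Hells partner Cdca7, stood at 0.36 ± 0.17 (adjusted p = 0.409), Cdca7 itself at −0.11 ± 0.23, Smchd1 at 0.18 ± 0.13 (adjusted p = 0.570) and the histone demethylase gene Kdm1a at −0.18 ± 0.12 (adjusted p = 0.552). Usp7, which encodes a deubiquitinase that stabilises Uhrf1 and Dnmt1, stood at −0.04 ± 0.12 in its brightest probe set, and 2 others are not given. Cdca7 and Usp7 are named after their values were seen. Uhrf2, the paralogue of Uhrf1, had signals of 253.6 and 214.9 in control versus 227.9 and 272.1 in PhIP (0.09 ± 0.14, adjusted p = 0.811), with overlapping groups.

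The list of methyl-CpG readers had a median of −0.03 over 7 tested genes (−0.14 without control 1, 0.02 without control 2), 0 of them under an unadjusted p of 0.05. Mbd5 stood at 0.61 ± 0.30 (adjusted p = 0.430), where PhIP 1 alone was high (27.4 and 35.3 in control, 74.8 and 36.6 in PhIP). Mbd3 (−0.08 ± 0.14) and Zbtb4 (−0.08 ± 0.12, and −0.05 ± 0.18 in another probe set) lay near 0. Of 8 tested demethylation genes, 4 were under the unadjusted p, all higher (6.12% of all genes). Of these, 3 were Gadd45 genes, stress-inducible adaptors linked to DNA repair and demethylation. Gadd45g had signals of 459.0 and 410.0 in control versus 642.4 and 641.9 in PhIP (0.56 ± 0.10, adjusted p = 0.103). Gadd45a stood at 0.59 ± 0.15 (adjusted p = 0.184), Gadd45b at 0.49 ± 0.15 (adjusted p = 0.258) and Idh1, an enzyme that makes the cofactor of the TET oxidases, at 0.36 ± 0.11 (adjusted p = 0.242). Idh2, on the same list and named after its values were seen, was lower without overlap. It had 1189.9 and 1414 in control versus 1155.5 and 1177.5 in PhIP (−0.15 ± 0.10, adjusted p = 0.553). The TET oxidases themselves, named after their values were seen, differed little in their brightest probe sets, with Tet2 at 0.03 ± 0.17 and Tet3 at 0.06 ± 0.14. For Tet3, 2 other tested probe sets are not given, and Tet1 (4.9 to 9.0) was below the minimum.

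**Figure D4:**
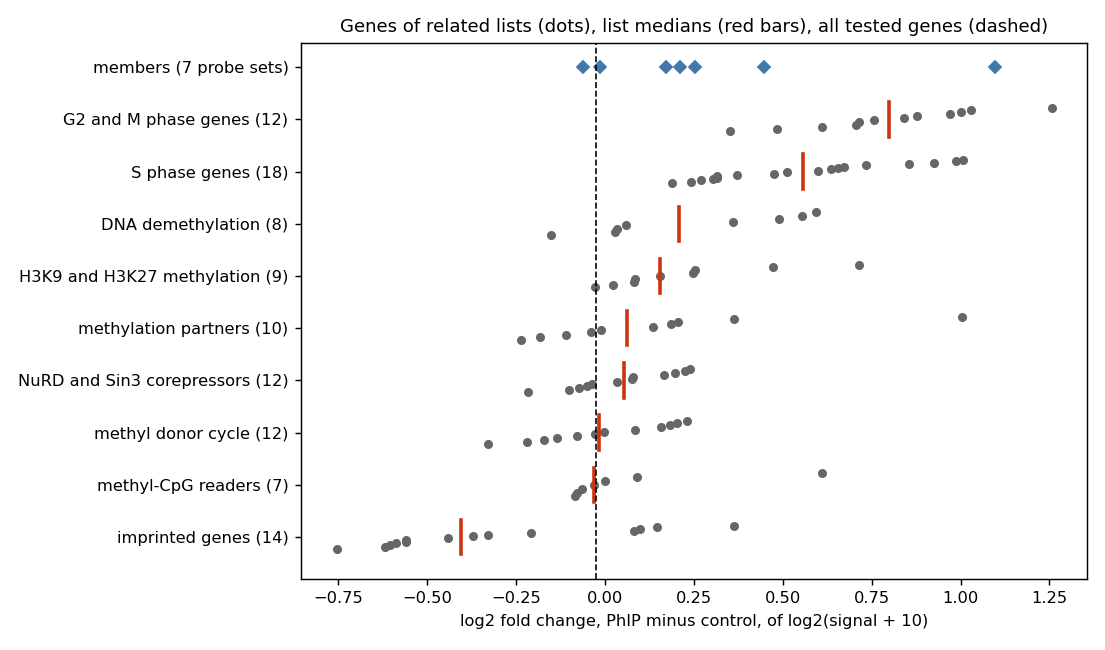
Log2 fold change of PhIP minus control (x axis) for each tested gene of the related lists (dots, with the number tested in parentheses), the list medians (red bars) and the median of all tested genes (dashed line, −0.03), above which the 7 member probe sets are drawn as diamonds in the top row. The S phase and G2 and M phase lists lie wholly to the right of 0, and the imprinted genes have the lowest median, −0.41.

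The supply of methyl groups gave no common direction. The 12 tested genes of the methyl donor cycle had a median of −0.02, with 5 higher and 7 lower. The median was 0.02 without control 1, 0.01 without control 2, 0.09 without PhIP 1 and −0.04 without PhIP 2. Mat2a, which makes the donor S-adenosylmethionine, had signals of 5028.8 and 5530.9 in control versus 4855.8 and 4512 in PhIP (−0.17 ± 0.07, adjusted p = 0.369), while a dimmer probe set of it stood at 0.70 ± 0.42. Shmt2 stood at −0.33 ± 0.15 (adjusted p = 0.419), and Ahcy, which removes the product that inhibits methyltransferases, at 0.23 ± 0.12 (adjusted p = 0.473). Shmt1, the cytosolic counterpart of Shmt2, stood at 0.20 ± 0.12 (adjusted p = 0.522).

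Repressive histone methylation genes had a median of 0.15 over 9 tested, 8 of them higher (0.10 without PhIP 2, 0.08 when probe sets of a gene were averaged). Ezh2, the methyltransferase of the polycomb complex, had signals of 33.1 and 36.7 in control versus 55.4 and 72.8 in PhIP (0.71 ± 0.20, adjusted p = 0.221), and another probe set of it stood at 0.74 ± 0.21. Its partner Eed stood at 0.25 ± 0.12 (adjusted p = 0.412), the heterochromatin protein gene Cbx5 at 0.47 ± 0.21 (adjusted p = 0.396) and Ehmt2 at 0.25 ± 0.14 (adjusted p = 0.489). Corepressors of the NuRD and Sin3 complexes, through which Mbd2 acts, had a median of 0.05 over 12 tested. Of these 1 was under the unadjusted p, the histone-binding gene Rbbp7 (0.23 ± 0.09, adjusted p = 0.337). Sin3a stood at 0.24 ± 0.17, Mta3 at 0.20 ± 0.13 (−0.22 ± 0.26 in another probe set) and Mta1 at 0.17 ± 0.14.

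Genes of 2 groups that DNA methylation keeps silent, wholly or on 1 parental copy, were also read. Of 12 germline genes 8 were on the array, and all 8 had a mean over the 4 arrays below the minimum, with summed signals of 63.6 and 57.4 in control versus 45.9 and 35.7 in PhIP. Imprinted genes had a median of −0.41 over 14 tested, 10 lower and 4 higher. In 7 the groups were apart in the lower direction (26.9% of all genes), and 3 were under the unadjusted p. H19, a noncoding RNA of the Igf2 locus, had signals of 32.3 and 46.0 in control versus 25.3 and 13.6 in PhIP (−0.75 ± 0.28, adjusted p = 0.327). Meg3 stood at −0.59 ± 0.24 (adjusted p = 0.369), Ndn at −0.61 ± 0.24 (adjusted p = 0.363) and Grb10 at −0.37 ± 0.17 (adjusted p = 0.419). The brightest of the list, Gnas and Igf2r, named after their values were seen, stood at 0.15 ± 0.08 and 0.10 ± 0.09 in their brightest probe sets. Each had 1 other tested probe set, not given here. With the minimum set at the 60th percentile, which leaves only the brighter genes, the median turned to 0.08.

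Markers of several cell types also differed between the groups, and in bulk tissue fewer cells of a type cannot be told apart from less RNA per cell. Over all tested genes, the groups were apart in the lower direction in 26.9% and in the higher one in 21.6%. All 7 smooth muscle markers were lower on both PhIP arrays than on either control array, with summed signals of 6008.2 and 5997.1 in control against 3640 and 3671 in PhIP. All 6 fibroblast markers were lower, 5 without overlap (11235.6 and 8754.7 against 6733.7 and 6778.4), and so were all 4 endothelial markers (194.6 and 208.8 against 132.3 and 123.8). Luminal epithelial markers were higher in 5 of 6, at 9643.6 and 9298.1 against 9849.1 and 10388.8, and the 4 basal markers summed to 919.3 and 888.9 against 811.5 and 906.6. Of the basal markers, Krt14 (94.7 and 101.8 against 77.4 and 66.3) and Tp63 (72.7 and 59.4 against 49.7 and 42.7) were lower without overlap. The brighter Krt5 and Krt15 overlapped and made up most of the sum. Macrophage markers were higher in 2 of 5, the bright genes Cd14 and Lyz2, which made up most of the sums of 5385.2 and 5242 against 6656.1 and 6610.2. The other 3 were lower, and the median log2 fold change of the list was −0.03. Cd68 was apart in the lower direction (32.7 and 31.3 against 24.0 and 18.3), and Csf1r and Aif1 overlapped. T and B lymphocyte markers summed to 55.1 and 84.0 in control versus 62.2 and 63.7 in PhIP over 6 genes, only 2 of which reached the minimum. Cd2 and Cd79b, named after their values were seen, were at 3.7 or less on every array. Skeletal muscle (903.9 and 1437.5 against 495.9 and 416.4), adipocyte (285.8 and 192.3 against 79.8 and 146.3) and red blood cell sums (1692.3 and 2451.5 against 1300.6 and 853.3) were lower in PhIP. The skeletal muscle genes Myl1 (5.2 and 305.6), Tnni2 (20.2 and 71.4) and Ckm (22.6 and 93.9) differed widely between control 1 and control 2. Acta1 (658.2 and 691.1) and Tnnc2 (197.7 and 275.5) differed less. No marker of these lists was listed at 0. The part of these differences in the values of Uhrf1 and the other members was not tested.

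**Figure D5:**
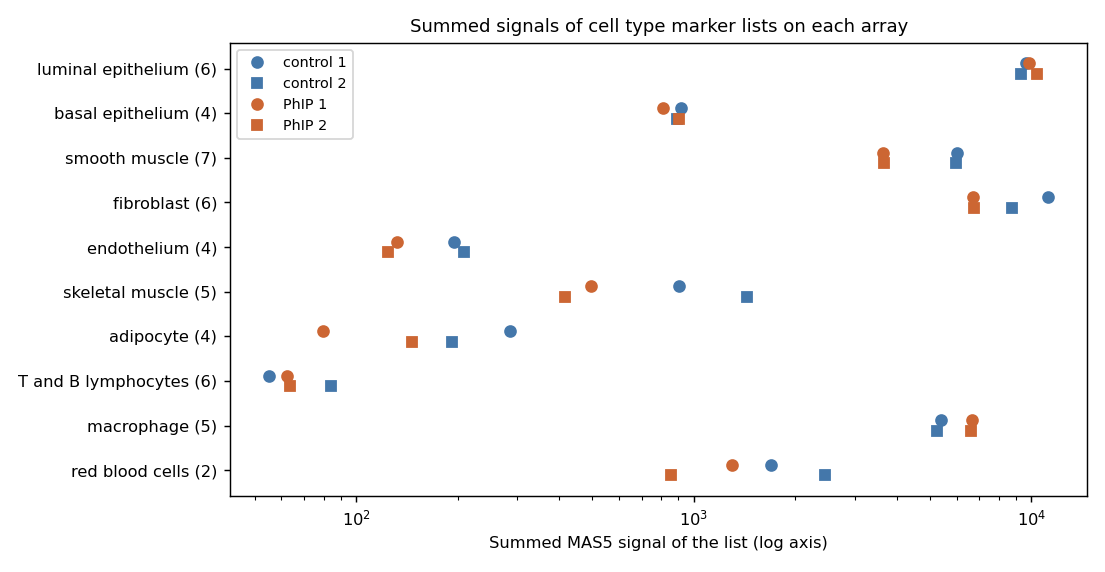
Summed MAS5 signal (x axis, log scale) of each cell type marker list, with the number of genes on the array in parentheses, for control (blue) and PhIP (orange) arrays, circles for replicate 1 and squares for replicate 2. Smooth muscle sums lie at 6008.2 and 5997.1 in control versus 3640 and 3671 in PhIP, while lymphocyte sums overlap.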

How the data were processed

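Gene expression was measured on 4 Affymetrix rat arrays from biotin-labelled cRNA made from 5 µg of total RNA. The deposited values are MAS5 intensities, one per probe set and array on a linear scale, per the submitters' processing notes. No source used here gives the scaling target, detection calls or MAS5 version. The 2% trimmed mean was 100.0 on every array. Depth has no meaning for arrays, and their number limits the precision.

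The platform annotation gave the gene names: 20832 carried 1 symbol, 436 several and 9831 none, and all 8 member probe sets matched RefSeq (GRCr8) by Entrez identifier. After removal of 57 manufacturer's controls, signals were analysed as log2(signal + 10), and probe sets with a mean above the 40th percentile were tested with limma (R 4.3.3, limma 3.58.1, eBayes with trend, two-sided, Benjamini-Hochberg over 18625 probe sets, 2 residual and 5.67 prior degrees of freedom). The steps were tested on simulated data. The members and lists were chosen with earlier results of these data known, and the promoter motifs after the values were seen. All members were named, with up to 4 genes per list by the moderated statistic and the 10 genes most like Uhrf1. In some lists only those that the text needs are given. Labels call the arrays biological replicates of pooled rats, so p-values set differences against the spread between pools. That spread is moderated, and much of it comes from the trend over all tested probe sets rather than a gene's own pools. Alternatives were other constants, filters, normalizations and eBayes settings, the replicate number as a block, and leaving out each array. Python 3.11.15 and matplotlib 3.10.9 drew the plots.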

Additional observations from a re-analysis of the deposited data

How the results depend on the processing

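The 7 tested probe sets gave 110 alternative values, of which 96 lay within 1 SD of the spread between pools and 14 did not. The sign differed from the one reported in 10, all of Dnmt3a. Much of the 96 was fixed in advance. With 2 pools per group, leaving out 1 array cannot shift a log2 fold change by more than that SD. Filters, eBayes settings and the block leave it unaltered, so only other constants and normalizations could move a value beyond it. The log2 fold change of Uhrf1 was 1.21 with no constant, 1.19 with a constant of 2, 1.00 with a constant of 20, 1.31 with scaling to the hybridization controls and 1.23 with median centring, and 1.06 to 1.14 without 1 array. Of 153 alternative list medians 106 lay within 1 SD and 12 had the other sign. The eBayes settings and the block could not alter these either. The number of probe sets called, 5, was 22 with a constant of 20, 0 with no filter, 44 with the 60th percentile, 0 after quantile normalization or median centring, 3 after cyclic loess, 164 after scaling to the hybridization controls, 0 without trend, 52 with robust eBayes and 143 at an adjusted p of 0.1. It ran from 0 without PhIP 1 or without PhIP 2 to 462 without control 2 and 2334 without control 1. Member probe sets past the adjusted p, 0 in the analysis reported, were 1 (Uhrf1) with the 60th percentile, after scaling to the hybridization controls and with robust eBayes. Members under the unadjusted p, 2, were 5 after scaling to the hybridization controls and 3 after median centring. The members were chosen on this contrast, so neither count is a test. Genes of the related lists past the adjusted p, 0, were 1 with the 60th percentile or robust eBayes, 17 after scaling to the hybridization controls, and 0 to 28 without 1 array. The cause of these shifts was not tested. With the replicate number as a block, which shares only a number (correlation of same-numbered deviations −0.06), 35 probe sets and 1 list gene were called, 0 members were, and the Uhrf1 value was unaltered at 1.10. With 2 pools per group, the SE of Mbd1 and Hells came close to the size of their differences, and Dnmt3b was too dim to read.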

Other observations

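The E2F motifs given above were also counted before the starts of the related genes, as a description of letters. Among all 27457 genes of the promoter table, 368 (1.34%) held one at any annotated start. Among members with an entry it was 2 of 6, Uhrf1 and Hells. Among S phase genes it was 6 of 16, and among G2 and M phase genes it was 0 of 11. Histone methylation genes held it in 2 of 11, methyl donor genes in 2 of 13, imprinted genes in 2 of 17, methylation partners in 1 of 8 and germline genes in 1 of 10. Readers, demethylation genes and corepressors held none (0 of 9, 0 of 9 and 0 of 12). Within the members, the 2 genes with a match had log2 fold changes of 1.10 and 0.21, and Dnmt1, with none in its window, had 0.45. The motifs were chosen after these values were seen, and a link between matches and differences was not tested.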
